A study of Homo sapiens with 6 samples.

Results

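Ferritin heavy chain (FTH1), ferritin light chain (FTL), the transferrin receptor (TFRC) and the metallothioneins MT2A, MT1X and MT1E were followed in long-read cDNA counts from Calu-6, a human lung carcinoma cell line. The 6 genes were chosen by symbol. Of them, 4 were counted (FTH1, FTL, MT2A and MT1X), over 21 transcript models and 26576 of 6784575 counts, in a table of 10072 genes. TFRC and MT1E had 0 rows in the count table and are not analysed here. The libraries compared cells given a non-silencing siRNA (siControl, 3 libraries) with cells given an siRNA against the junction of exons 1 and 5 of the TERT Delta 2-4 splice variant (siDelta2-4, 3 libraries), each used at 10 nM for 48 h with RNAiMAX. The labels gave the genotype of both groups as WT, while the count columns of both groups carried the word Empty, and the methods of the study describe Calu-6 lines that stably carried an empty Flag-V5 vector. By the columns and the methods, both groups then carried the empty vector, which the label WT leaves out. The numbers 1 to 3 given to libraries below come from the count columns and could not be tied to single samples in the labels. The study calls its replicates biological and the labels do not say whether they came from separate cultures, so the p-values measure the spread between these libraries.

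Ferritin is a hollow protein shell built from heavy and light chains that stores iron: the heavy chain oxidises the iron that enters, and the light chain helps to form the mineral core. The transferrin receptor brings iron into the cell by taking up iron-loaded transferrin. Messages for ferritin and for the transferrin receptor carry hairpins, called iron-responsive elements, which iron regulatory proteins bind when cellular iron is low. Binding blocks the translation of ferritin messages and protects the message of the receptor from decay. Metallothioneins are small cysteine-rich proteins that bind zinc and copper, and their genes are switched on by the zinc-sensing factor MTF1 at short promoter sequences called metal-responsive elements.

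The hairpin loops of the ferritin messages are printed to show what both chains share. A C followed by 5 bases and the loop CAGTGN (N is any base) was found 1 time in the first 100 bases of FTH1-201 and 1 time in those of FTL-201, the principal annotated transcripts. Both matches lay in exon 1 before the start codon, and the loop is given in capitals within 30 bases.
FTH1: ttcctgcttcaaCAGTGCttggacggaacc
FTL: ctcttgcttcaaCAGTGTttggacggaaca
The FTH1 stretch (GRCh38, chr11:61967573-61967602, minus strand) covered bases 33 to 62 of the transcript, and the FTL stretch (chr19:48965335-48965364, plus strand) bases 27 to 56. The same letters occurred in the first 100 bases of 667 of 20046 canonical protein-coding transcripts (3.33%), so the match alone is not specific to ferritin. Over their whole lengths, FTH1-201 and FTL-201 were identical at 51.5% of aligned positions, against 77.7% for MT2A-201 and MT1X-201.

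The promoters of the metallothioneins counted are printed because both genes had higher depth-scaled counts (CPM, read counts relative to library size) in every siDelta2-4 library than in any siControl library. A lack of overlap between the groups, in either direction, was seen for 26.0% of all genes tested. MT1X did not pass the test described below, and a role of metal-responsive elements in these values was not tested. The metal-responsive core was searched as TGCGCNC and TGCACNC on both strands in the 250 bases before each start site (RefSeq, GRCh38.p14), where 4 of the 6 genes had an entry. Matches are in capitals, read on the gene strand, so that a match on the other strand appears as its reverse complement.
MT2A: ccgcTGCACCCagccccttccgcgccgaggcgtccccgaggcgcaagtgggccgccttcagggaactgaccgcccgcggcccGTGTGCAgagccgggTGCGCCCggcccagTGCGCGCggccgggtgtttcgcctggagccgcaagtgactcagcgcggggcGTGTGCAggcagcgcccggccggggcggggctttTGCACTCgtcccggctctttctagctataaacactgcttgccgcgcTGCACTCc
MT1X: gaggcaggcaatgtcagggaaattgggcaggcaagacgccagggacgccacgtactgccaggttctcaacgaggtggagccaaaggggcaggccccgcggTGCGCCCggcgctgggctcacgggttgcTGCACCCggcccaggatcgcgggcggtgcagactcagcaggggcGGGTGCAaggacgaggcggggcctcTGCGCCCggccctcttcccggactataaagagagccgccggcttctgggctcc
MT2A (chr16:56608334-56608583, plus strand) held 7 matches that did not overlap each other, a number reached by 0.0313% of 35116 promoters. MT1X (chr16:56682220-56682469, plus strand) held 4, which 0.370% of promoters reached, and the FTL promoter held 0. The promoter of TFRC, which was not counted, held 3, some of them overlapping, and 1.58% of promoters reached that number. At least 1 match occurred in 24.8% of all promoters. The letters TATAAA stood at bases -29 to -24 in MT2A, -30 to -25 in MT1X and -33 to -28 in TFRC, were not matched in FTL, and occurred in 10.7% of all promoters. A match of this kind is a description of letters and not a measured binding site.

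**Figure D1:**
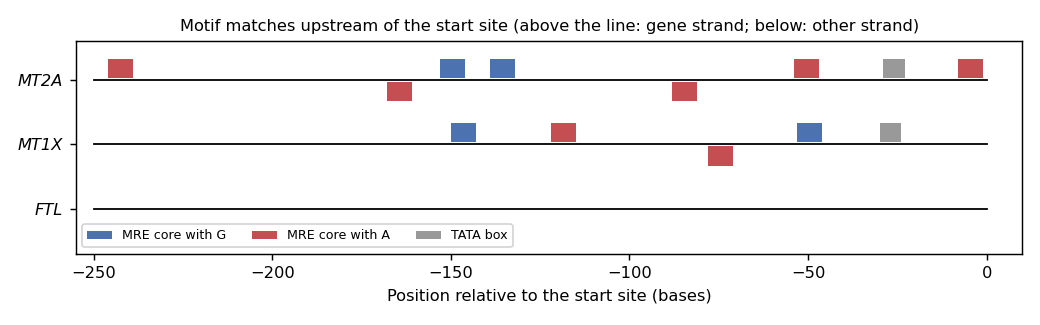
Positions of the metal-responsive core (in its forms with G and with A at the fourth base) and of TATAAA in the 250 bases before the start sites of MT2A, MT1X and FTL, with the start site at 0, matches on the gene strand above the line and those on the other strand below it. MT2A had 7 core matches, MT1X had 4 and FTL had none.

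The 6 libraries held 1037468 to 1309241 counts each. Pairs of libraries within a group differed by 1.51 to 3.70 chi-square units per degree of freedom, with the larger values for siControl library 3 (3.70 against library 1 and 2.73 against library 2), so no library was a duplicate of another and siControl library 3 stood apart from its group. TERT had 0 rows in the table, so the knockdown itself was not analysed here. The carcinoma keratins KRT8 (824 counts) and KRT18 (1124 counts) were counted in every library and so was VIM (987 counts), a mesenchymal filament that cell lines often carry. EPCAM had 13 counts, KRT19 had 1 and CDH1 had 0 rows. Of the other mesenchymal markers, FN1 had 2 counts and CDH2 had 0 rows. Of 13 markers of blood, endothelium, fibroblasts and liver, 10 had 0 rows, and CD68 (12 counts), LUM (12) and HBA1 (3) were near 0.

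The members differed widely in level. FTL was by far the most abundant, at rank 77 of the 3888 genes that passed the count filter and were tested, followed by MT2A at rank 310, FTH1 at rank 1318 and MT1X at rank 2529. The CPM ranges of these 4 genes over all 6 libraries did not overlap. Per kilobase of the counted models, FTL ranged from 3339 to 4081 CPM per kb and MT2A from 1352 to 2163, and these ranges stayed apart from each other and from the others. FTH1 (50.2 to 83.4 CPM per kb) and MT1X (39.2 to 62.9) overlapped on that scale, so their order does not hold per length: FTH1 lay above MT1X in the 3 siControl libraries, and MT1X lay above FTH1 in siDelta2-4 libraries 2 and 3.

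On the gene scale, MT2A rose and FTH1 fell after siDelta2-4, while FTL (lower) and MT1X (higher) did not pass the test. Genes were tested with edgeR's quasi-likelihood test, with Benjamini-Hochberg adjustment over all 3888 genes and calls at an adjusted p under 0.1. With 2 of 4 members called, the count stands beside 13.0% of all tested genes (272 higher and 232 lower). The CPM of all 4 members did not overlap between the groups, beside 26.0% of all tested genes. In bulk libraries such as these, fewer cells that express a gene and less RNA per cell cannot be told apart.

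**Figure D2:**
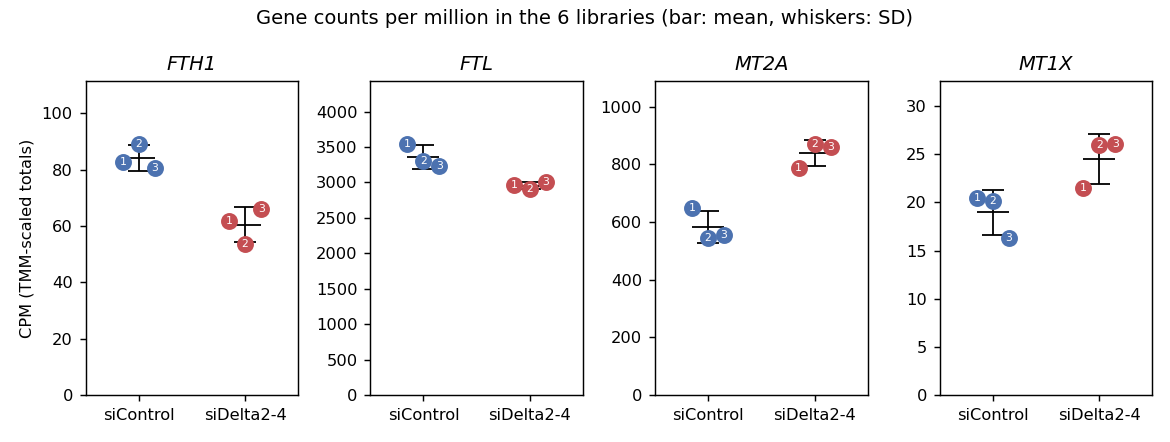
CPM on TMM-scaled totals (vertical axes, each starting at 0) of FTH1, FTL, MT2A and MT1X in the 3 siControl and 3 siDelta2-4 libraries, with the library number inside each point, the mean as a bar and the SD as whiskers. FTH1 and FTL lay lower and MT2A and MT1X higher in every siDelta2-4 library than in any siControl library.

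FTH1 (ENSG00000167996.16, GRCh38, chr11:61959718-61967634, minus strand) gave 85, 93 and 84 counts in siControl libraries 1 to 3, against 66, 66 and 86 in siDelta2-4 libraries 1 to 3. As CPM, these were 82.9, 89.2 and 80.5 in siControl and 61.8, 53.6 and 66.0 in siDelta2-4. Every siDelta2-4 library lay below every siControl library once scaled for depth, although the raw count of siDelta2-4 library 3, the deepest, reached that of the controls. The mean fell from 84.2 ± 4.51 to 60.5 ± 6.29 CPM (SD, n = 3 libraries each), a log2 fold change of -0.48 ± 0.15 (SE, 95% interval -0.79 to -0.16) or 0.719-fold, and the change was called by edgeR's quasi-likelihood test (adjusted p = 0.0517). This call was near the threshold: it was lost when library totals alone set the scale (-0.41, adjusted p = 0.104, edgeR), and without siControl library 2 (-0.44, adjusted p = 0.193), siDelta2-4 library 1 (-0.49, adjusted p = 0.106) or siDelta2-4 library 2 (-0.39, adjusted p = 0.207). The direction was lower in each of these fits.

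FTL (ENSG00000087086.15, chr19:48965309-48966879, plus strand) had 3637, 3439 and 3379 siControl counts against 3159, 3571 and 3914 after siDelta2-4. These were 3546, 3298 and 3237 CPM in siControl and 2958, 2902 and 3003 CPM in siDelta2-4. The siDelta2-4 values lay close together and below all 3 control values, of which siControl library 1 was the highest. The means were 3360 ± 164 and 2954 ± 51.0 CPM (SD, n = 3 each), a log2 fold change of -0.19 ± 0.07 (SE, 95% interval -0.34 to -0.03) or 0.879-fold, and FTL was not called (adjusted p = 0.124, edgeR). Its call turned on the processing. With DESeq2's Wald test the adjusted p was 0.0392, and without siControl library 3, the library that stood apart, it was 0.00751 (-0.23, edgeR). Without any other single library FTL was not called (adjusted p from 0.241 to 0.334, edgeR). In 11 of 16 alternatives it stayed uncalled.

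MT2A (ENSG00000125148.7, chr16:56608584-56609497, plus strand), the most abundant metallothionein here, had 665, 568 and 581 siControl counts against 842, 1073 and 1120 after siDelta2-4. These were 648, 545 and 557 CPM in siControl and 788, 872 and 859 CPM in siDelta2-4. The lowest siDelta2-4 library lay well above the highest siControl library. The mean rose from 583 ± 56.8 to 840 ± 45.0 CPM (SD, n = 3 each), a log2 fold change of 0.53 ± 0.09 (SE, 95% interval 0.35 to 0.71) or 1.44-fold (95% interval 1.27 to 1.64), called with an adjusted p of 0.000377 (edgeR). By its p-value MT2A ranked 24 of the 3888 genes tested, and by its fold change 417 counting from the most raised gene, so the change was moderate in size and tight between libraries.

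MT1X (ENSG00000187193.9, chr16:56682470-56684196, plus strand) had 21, 21 and 17 siControl counts against 23, 32 and 34 after siDelta2-4. These were 20.5, 20.1 and 16.3 CPM in siControl and 21.5, 26.0 and 26.1 CPM in siDelta2-4. The groups did not overlap, but siDelta2-4 library 1 lay only just above the highest control, and the counts were few. The means were 19.0 ± 2.33 and 24.5 ± 2.60 CPM (SD, n = 3 each), a log2 fold change of 0.38 ± 0.25 (SE, 95% interval -0.14 to 0.89), and MT1X was not called (adjusted p = 0.383, edgeR). The interval takes in both no change and the change of MT2A.

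Model length and direction moved together among the called genes: the median model length was 1409 bases for genes called higher, 774 for genes called lower and 1143 for all tested. The counted models of the members averaged 1069 bases for FTH1, 869 for FTL, 403 for MT2A and 415 for MT1X. MT2A, which was called higher, and MT1X, which was not called, thus had the shortest models. With a loess trend on length removed within each library, the log2 fold changes (edgeR) were -0.58 for FTH1 (adjusted p = 0.0195), -0.16 for FTL (adjusted p = 0.0712), 0.66 for MT2A (adjusted p = 1.37e-05) and 0.51 for MT1X (adjusted p = 0.192). All 4 kept their direction, and FTL was called under this setting.

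**Figure D3:**
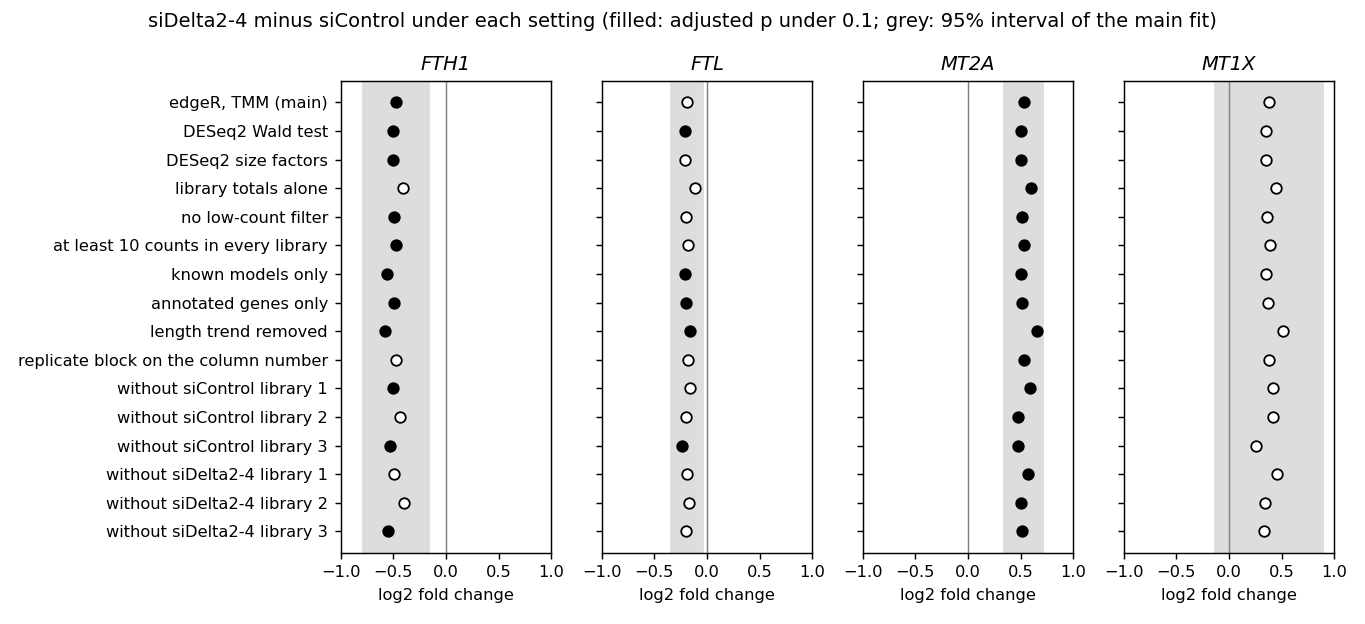
Log2 fold change (siDelta2-4 minus siControl, horizontal axes) of FTH1, FTL, MT2A and MT1X under each processing setting (rows), with filled points for an adjusted p under 0.1 and the 95% interval of the edgeR fit with TMM in grey. Every point of FTH1 and FTL lay below 0 and every point of MT2A and MT1X above it, MT2A was called in all rows, MT1X in none, and FTH1 and FTL in some.

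As shares of all counts in a library, FTH1 plus FTL made up 0.336%, 0.328% and 0.334% in siControl and 0.301%, 0.307% and 0.306% in siDelta2-4. The ferritin share was lower in all 3 siDelta2-4 libraries, with means of 0.333% ± 0.00442 and 0.305% ± 0.00299 (SD, n = 3). An exact permutation test, two-sided, gave p = 0.1, the lowest value open to 3 libraries against 3. MT2A plus MT1X made up 0.0620%, 0.0547% and 0.0576% in siControl and 0.0808%, 0.0933% and 0.0881% in siDelta2-4. That share was higher in all 3 siDelta2-4 libraries, at 0.0581% ± 0.00369 against 0.0874% ± 0.00628 (SD, n = 3, p = 0.1 by the same exact permutation test). Within ferritin, FTL took 97.7%, 97.4% and 97.6% of the counts in siControl and 98.0%, 98.2% and 97.9% in siDelta2-4. The light chain share differed by 0.444 percentage points between the groups without overlap (n = 3, p = 0.1 by that exact permutation test). These shares rest on gene counts that are not corrected for length, and the difference in the light chain share was small beside its level.

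The long reads were counted per transcript model, which shows what stood behind each gene count. FTH1 had 4 models, of which FTH1-201 (4 exons, 1203 bases) held 81.5% of the counts. FTL had 8 models, of which FTL-201 (4 exons, 871 bases) held 87.3% and the other 7 were unannotated. MT2A had 6 models and MT1X had 3, of which MT2A-201 (3 exons, 401 bases) held 97.8% and MT1X-201 (3 exons, 404 bases) 98.0%. Each gene was thus counted mostly through its principal annotated transcript. Over the 4 genes together, annotated models took 88.8% ± 0.622 of all member counts in siControl libraries against 89.8% ± 0.187 after siDelta2-4 (SD, n = 3, p = 0.1 by an exact two-sided permutation test). Within FTL, which held most of the member counts, the share of FTL-201 was 86.6%, 88.0% and 87.2% in siControl and 87.9%, 87.1% and 87.3% in siDelta2-4, so the groups overlapped there, and the pooled share also moves with the mix of genes.

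Of the 13 member models tested, 2 were called by edgeR's quasi-likelihood test over 6768 models, beside 6.91% of all models tested. MT2A-201 had 647, 551 and 569 siControl counts against 824, 1054 and 1095 after siDelta2-4. Its log2 fold change was 0.56 ± 0.08 (SE, 95% interval 0.40 to 0.73, adjusted p = 9.91e-05, edgeR). FTH1-201 had 66, 84 and 69 siControl counts against 52, 52 and 68 after siDelta2-4. It fell by 0.53 on the log2 scale (SE 0.17, adjusted p = 0.0732, edgeR), a call that DESeq2's Wald test did not make (adjusted p = 0.173). With single libraries left out, FTH1-201 was called without siControl library 3 (adjusted p = 0.0261), as FTL-201 then was (-0.19, adjusted p = 0.0226), and not without any of the other 5 (adjusted p from 0.116 to 0.334, edgeR). The called model of each gene was thus the one that held most of its counts.

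FTL-201 had 3150, 3027 and 2946 siControl counts against 2778, 3110 and 3417 after siDelta2-4, with a log2 fold change of -0.15 ± 0.06 (SE) that was not called (adjusted p = 0.165, edgeR). The second FTL model, which combines known splice sites in a new way (TALONT000445449, 4 exons, 868 bases), had 353, 297 and 328 siControl counts against 273, 345 and 356 after siDelta2-4, at -0.19 (adjusted p = 0.318, edgeR). Of the 8 FTL models tested, 6 had a log2 fold change below 0, from -0.36 to -0.15. The highest was 0.48 for an unannotated model that TALON classes as a partial match to an annotated transcript (TALONT000450544, 3 exons, 1031 bases, longer than FTL-201, adjusted p = 0.448, edgeR). It had 12, 10 and 14 siControl counts against 19, 16 and 22 after siDelta2-4, so its values were higher after siDelta2-4 where the depth-scaled values of FTL-201 were lower, without passing the test. Unannotated models, unlike FTL-201, were kept by a count rule, and all of them had at least 5 counts in every siDelta2-4 library. The contrast of TALONT000450544 with FTL-201 is thus not on equal terms, and the part played by the rule was not tested. The shortened FTH1 model (TALONT000614235, 3 exons, 462 bases) was at -0.21 (adjusted p = 0.808, edgeR) and MT1X-201 at 0.40 ± 0.25 (SE, adjusted p = 0.427, edgeR). The 8 member models that were not tested held 1 to 12 counts each.

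**Figure D4:**
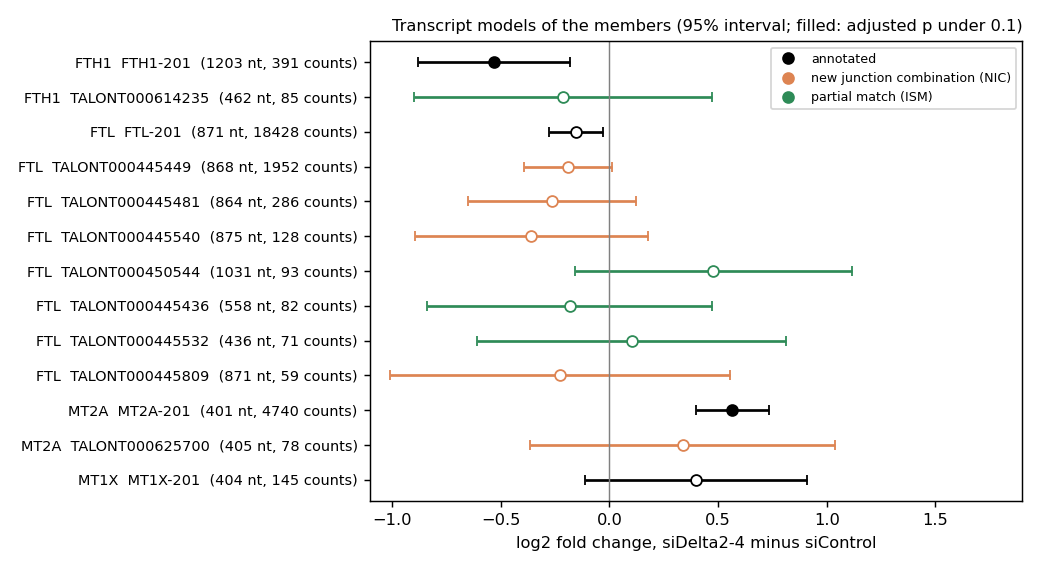
Log2 fold change (siDelta2-4 minus siControl, horizontal axis) with 95% intervals for the 13 member transcript models tested (rows, with length in nucleotides and total counts), coloured by how the model relates to the annotation and filled where the adjusted p was under 0.1. MT2A-201 at 0.56 and FTH1-201 at -0.53 were called, and the intervals widen as counts fall.

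Processed copies of the ferritin genes could share reads with them. FTH1P10 and FTH1P20 held 9 counts together, 1.88% of those of FTH1, and FTLP3 and FTLP8 held 128, 0.607% of those of FTL. Neither FTL copy followed its parent past the test (log2 fold changes of -0.05 and -0.11, adjusted p = 0.961 and 0.90, edgeR). With the copies added to their parents, FTH1 was at -0.49 (adjusted p = 0.0434) and FTL at -0.19 (adjusted p = 0.126, edgeR), close to the values without them. On the opposite strand FTH1 overlaps BEST1, and on its own strand MT1X overlaps a long non-coding RNA (ENSG00000259827). Each of these had 0 rows, and FTL and MT2A overlap no annotated gene. Whether reads of these loci were counted under unannotated TALON genes was not tested, since the table gives no coordinates for them.

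The other metallothioneins gave few counts. Of 19 other metallothionein genes and pseudogenes in the annotation, 4 had counts, 29 in all, and none was tested. MT1F had 0, 2 and 1 siControl counts against 3, 4 and 4 after siDelta2-4. These counts are near 0 and too few for a test, and their lack of overlap stands beside 26.0% of all tested genes. MT1A had 2, 1 and 1 siControl counts against 2, 3 and 1 after siDelta2-4, MT2P1 had 3 counts and MT3, the brain form, had 2. MT1A-201 was identical to MT2A-201 at 79.1% of aligned positions and MT1F-201 at 77.0%, so single reads may have been placed on the wrong family member.

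Of 155 other genes listed for iron, heme, zinc and copper handling, 89 were counted, 37 were tested, 1 was called higher and 1 lower, beside 13.0% of all genes tested. Their median log2 fold change was -0.02, beside 0.03 over all 3888 genes tested. Iron uptake, storage, export and sensing, the members' own pathway, was thinly covered, with 11 of 41 genes counted and 2 tested. These were PCBP1, which delivers iron to ferritin (20.9 ± 4.35 against 18.1 ± 4.28 CPM, SD, n = 3 each), and SKP1, a subunit of the ligase that degrades iron regulatory protein 2 (754 ± 73.7 against 692 ± 39.5 CPM). Neither was called (adjusted p = 0.734 and 0.421, edgeR). SKP1 was called lower with the length trend removed (-0.27, adjusted p = 0.0563) and without siControl library 3 (-0.20, adjusted p = 0.0772, edgeR). The 4379 counts of TCF7 on the opposite strand make the SKP1 value uncertain. FBXL5, the iron-sensing subunit of that ligase, had 55 counts and was not tested.

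Both calls fell among the 58 genes for iron-sulfur clusters and heme, of which 46 were counted and 21 tested. NDUFAB1, the mitochondrial acyl carrier protein that also serves iron-sulfur cluster assembly, had 193, 216 and 195 siControl counts against 145, 160 and 166 after siDelta2-4, with no overlap. It fell by 0.57 on the log2 scale (SE 0.11, adjusted p = 0.0018, edgeR). CISD2, an iron-sulfur protein of the endoplasmic reticulum and outer mitochondrial membrane, had 41, 38 and 43 siControl counts against 61, 65 and 73 after siDelta2-4. Its rise on the log2 scale was 0.49 ± 0.18 (SE, adjusted p = 0.083, edgeR), which DESeq2's Wald test did not call (adjusted p = 0.223) and which, with the length trend removed, was 0.34 (adjusted p = 0.226, edgeR). With single libraries left out, CISD2 was called without siControl library 3 (adjusted p = 0.0544) and not without any of the other 5 (adjusted p from 0.153 to 0.259, edgeR). The other 2 of the 3 most abundant genes in the list, BOLA3 and CIAO2A, both in cluster assembly, were at 0.10 and -0.01 (adjusted p = 0.637 and 0.969, edgeR). BOLA3 is uncertain, since a long non-coding RNA on the opposite strand (ENSG00000217702) held 1183 counts beside its 1182.

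None of the zinc and copper genes tested was called, 0 of 4 and 0 of 10, beside 13.0% over all genes tested. Of 36 genes for zinc transport and further metallothioneins, 16 were counted, 4 were tested and 0 were called, with 0 at an unadjusted p under 0.05 (edgeR), and DESeq2 also called 0. The zinc importers SLC39A9 (616 ± 14.2 against 602 ± 21.7 CPM) and SLC39A4 (30.2 ± 5.54 against 29.5 ± 10.1 CPM) and the zinc chaperone ZNG1A (33.0 ± 9.19 against 33.1 ± 8.69 CPM, SD, n = 3 each) had nearly equal means in both groups. SLC39A9 lies opposite ERH, which held 4288 counts beside its 4088, so the SLC39A9 value is uncertain. SLC30A7, a zinc transporter of the secretory pathway that is named here after its values were seen, had 3, 3 and 6 siControl counts against 8, 12 and 16 after siDelta2-4 and did not pass the count filter. It was called higher by edgeR with no filter on low counts (1.33, adjusted p = 0.0939). It was also called without siControl library 3 (1.72, adjusted p = 0.0261) and without siDelta2-4 library 1 (1.49, adjusted p = 0.0864, edgeR). In these last fits it passed the count filter only through its siDelta2-4 libraries, since its siControl counts were at most 6. Those calls are thus not read as support for a rise. Of 20 copper genes, 16 were counted, 10 were tested and 0 were called, again with 0 at an unadjusted p under 0.05 (edgeR) and 0 called by DESeq2. SOD1, the copper-zinc superoxide dismutase, stood at 420 ± 16.1 and 422 ± 10.8 CPM and the copper chaperone ATOX1 at 203 ± 7.12 and 201 ± 12.0 CPM (SD, n = 3 each). The ATOX1 value is uncertain, since ATOX1-AS1 on the opposite strand held 1300 counts beside its 1357. CMC1, a mitochondrial copper-binding protein, was at 125 ± 20.7 and 131 ± 14.5 CPM.

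**Figure D5:**
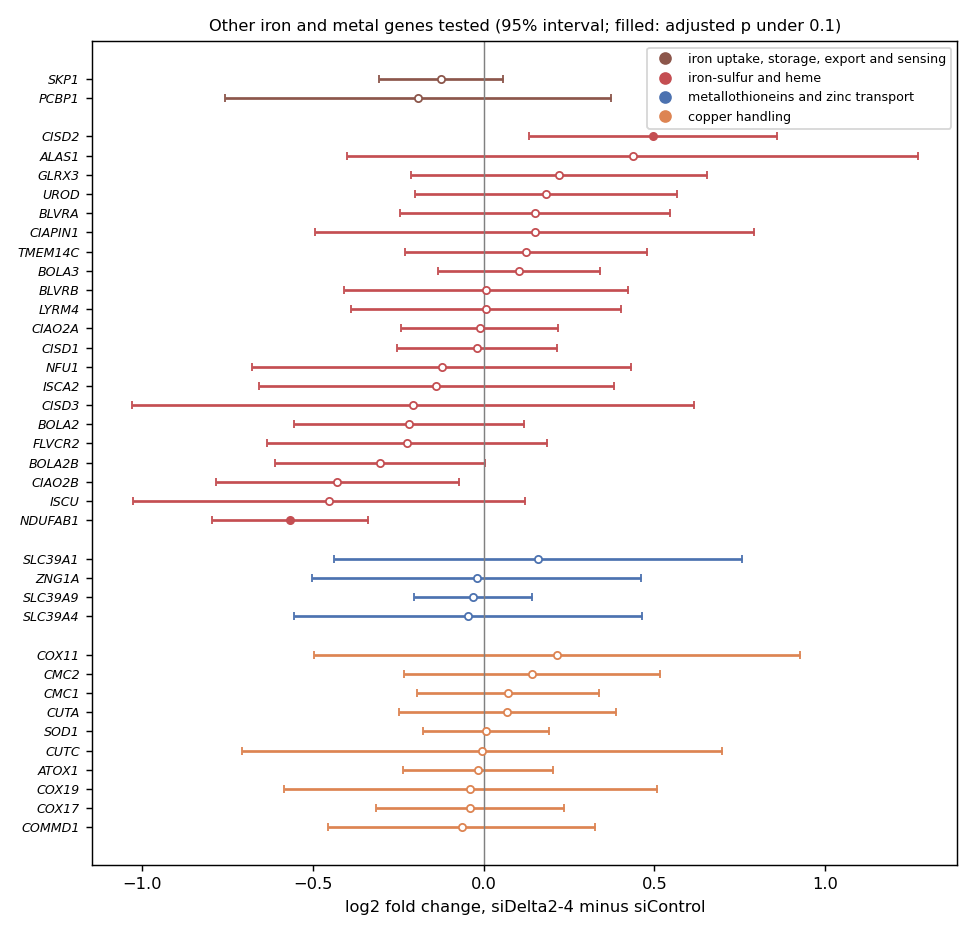
Log2 fold change (siDelta2-4 minus siControl, horizontal axis) with 95% intervals of the 37 other iron, heme, zinc and copper genes tested (rows), coloured by list and filled where the adjusted p was under 0.1. NDUFAB1 at -0.57 and CISD2 at 0.49 were called, and 16 genes lay above 0 and 21 below.

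Genes whose profiles over the 6 libraries lay closest to each member were found by Euclidean distance between centred log2 CPM values, among 1651 annotated genes with a mean of at least 20 CPM. These were ZNF791 (distance 0.13) and ENSG00000280195 (0.17) for FTH1, TRIM66 (0.07) and LYPD4 (0.08) for FTL, ACIN1 and TOMM22 (both 0.14) for MT2A, and TIMM8B (0.19) and SNAPIN (0.20) for MT1X. The distance includes the difference between the groups, so log2 fold changes near those of the members follow from the choice itself. In the same order, they were -0.42 and -0.47, -0.19 and -0.18, 0.46 and 0.51, and 0.30 and 0.41. ENSG00000280195, ACIN1, TIMM8B and SNAPIN each lie opposite a gene with counts of its own (RPL10, C14orf119, NKAPD1 and ILF2), so part of these profiles may belong to the partner. ZNF791, TRIM66 and LYPD4 had high mean levels of 1641, 4262 and 6465 CPM, beside group means of 3360 and 2954 CPM for FTL. Whether reads of other transcripts were counted under ZNF791, TRIM66 or LYPD4 was not tested, so their likeness to ferritin is uncertain. No member was among the nearest genes of another member, and the likeness is a description over 6 libraries that share the 2 groups.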

How the data were processed

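PolyA RNA from 6 Calu-6 samples was made into barcoded PCR-cDNA libraries and sequenced on 1 Nanopore flow cell. The authors, per the labels and their methods text, used minimap2 2.14 for alignment to GRCh38.p14, SAMtools 1.13, TranscriptClean for correction and TALON for annotation with Gencode 44, and kept an unannotated model where 3 samples had 5 reads or more. The deposited values were raw counts of reads per transcript model, not normalised by the authors, with each model's length in bases and number of exons. All 6398 unannotated models had at least 5 counts in every siDelta2-4 library. Such models are part of the gene sums of FTH1, FTL and MT2A and of the genes tested, so those values are not free of this rule. With known models only, the log2 fold changes (edgeR) were -0.56 for FTH1 (adjusted p = 0.0317), -0.21 for FTL (adjusted p = 0.0431) and 0.50 for MT2A (adjusted p = 0.000355). With annotated genes only, 358 of 2367 genes were called. The fold changes and p-values of the study were not used. Whether counting used strand is not given in the sources used here. All 6 count columns were used. Precision is set by 1037468 to 1309241 counts per library, and the errors given cover the spread between libraries.

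Counts were summed per gene identifier, and the sums went into edgeR 4.0.16 under R 4.3.3 (low-count filter by filterByExpr, TMM, quasi-likelihood fit of the 2 groups, no covariate, two-sided, Benjamini-Hochberg adjustment over all genes, calls at an adjusted p under 0.1). A separate fit of this kind took the transcript models. CPM used TMM-scaled totals, log2 CPM a prior count of 2, and levels per kilobase the count-weighted model length. Each SE came from the log2 fold change over the root of its quasi-likelihood F. Shares were compared with exact two-sided permutation tests (SciPy 1.17.1), and transcripts were aligned with Biopython 1.88. DESeq2 1.42.0 was an alternative test, with its size factors, library totals, other filters, annotated models or genes alone, a length trend removed (loess, span 0.4), a replicate block, a threshold of 0.05, processed copies added, and each library left out in turn as the others.

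The named genes were the members, their processed copies and overlapping genes, other metallothioneins, and, of 4 lists of iron, iron-sulfur and heme, zinc and copper genes, the called genes and the 3 with the highest mean CPM, with the 2 genes nearest in profile to each member. Members, lists and tests were chosen with earlier results of these data known.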

Additional observations from a re-analysis of the deposited data

How the results depend on the processing

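MT2A (0.47 to 0.66, adjusted p from 5.53e-06 to 0.00944) and MT1X (0.26 to 0.51, adjusted p from 0.192 to 0.696, with none given by DESeq2) kept their direction and their side of the threshold in 15 alternatives each. FTH1 stayed lower in all 16 of its alternatives but was no longer called with library totals (-0.41, adjusted p = 0.104) or with the column number as a replicate block (-0.48, adjusted p = 0.105), and without single libraries it ranged from -0.55 to -0.39. FTL stayed lower in 16 alternatives and was called with DESeq2 (-0.21, adjusted p = 0.0392), known models only (-0.21, adjusted p = 0.0431), annotated genes only (-0.20, adjusted p = 0.049) and the length trend removed (-0.16, adjusted p = 0.0712), and without single libraries it ranged from -0.23 to -0.16. The number of members called was 1 with library totals, the replicate block and a threshold of 0.05, 3 with DESeq2, known models only, annotated genes only and the length trend removed, and 1 to 3 without single libraries. The number of other metal genes called was 1 with DESeq2, its size factors, the block and the threshold of 0.05, 3 with annotated genes only, and 1 to 6 without single libraries. The 6 were called without siControl library 3 and were NDUFAB1, CISD2, SKP1 (-0.20), SLC30A7 (1.72), CIAO2B (-0.55) and BOLA2B (-0.37), the last 4 named after their values were seen. Of these, SLC30A7 passed the count filter there only through its siDelta2-4 libraries. The number of member models called was 1 with DESeq2, library totals, the block and the threshold of 0.05, 3 with known models only and the length trend removed, and 1 to 3 without single libraries. The cause of these changes was not tested. All 4 shares kept their direction. Over known models only, the ferritin difference was -0.0624 and the metallothionein difference 0.0618 percentage points, since the total then holds fewer counts, and this setting cannot be applied to the share of known models itself. TFRC and MT1E gave no value under any setting. Same-numbered libraries did not deviate together (correlations of 0.04, -0.14 and -0.08), so no pairing by column number was seen. Whether same-numbered libraries were handled together is not given, and these correlations cannot exclude it. Over all genes, 504 were called (272 higher), against 254 with DESeq2 (93 higher), 513 with library totals (361 higher), 477 with the length trend removed (194 higher), 252 of 1854 with known models only, 299 with the block, 304 at 0.05, and 194 (without siDelta2-4 library 2) to 1041 (without siControl library 3) with a library left out. Depth limits MT1X, with 148 counts, more than the other members.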
